A study of Mus musculus with 4 samples.

Results

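T cells of mouse dorsal skin and cheek (buccal mucosa) were picked out of an in situ transcript map by the transcripts inside each cell outline. A cell was taken when it held at least 10 transcripts, at least 1 transcript of Cd3g (the gamma chain of the CD3 complex that carries the T cell receptor signal), at least 2 transcripts summed over Cd3g, Cd7, Nkg7, Xcl1 and Icos, and none of the macrophage gene C1qa or the Langerhans cell gene Cd207. This rule took 1366 of 426404 cells with at least 10 transcripts, or 0.320%, and 555 of the 1366 held 3 or more marker transcripts. These 7 genes chose the cells, so their values are given as a description with no test. Because part of the cells on the female skin slide and the buccal slide were poorly backed by other lymphocyte genes, the cells are called T marker cells here.

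Xenium in situ analysis, which detects single transcripts of a fixed gene panel on a tissue section and assigns them to outlined cells, had been run on 4 slides of formalin-fixed sections. The mice were TRE-Pitx1/Krt5-rtTA littermates, in which the Krt5 promoter of basal keratinocytes drives rtTA and doxycycline then switches on Pitx1, a transcription factor normally found in oral epithelium but not in dorsal skin. Control mice received normal chow (Vehicle in the labels) and PITX1+ mice received doxycycline chow, so the drug and the transgene cannot be told apart. Skin of females and of males was on a slide each, with 2 Control and 2 PITX1+ sections from females and 1 Control and 2 PITX1+ sections from males, which makes slide and sex the same split. A buccal slide held 7 sections of Control mice of both sexes, so tissue and slide cannot be told apart either. A slide of male dorsal skin at day 4 after wounding held 1 Control wound and 2 PITX1+ wounds.

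The labels name conditions per slide and not per section. Control was taken as the first section in order of position on each slide of 3 skin sections and as the first 2 of the slide of 4, and for 14 of 14 unwounded sections the cell number was nearest to a total that the study lists for the same condition. Pitx1 in epithelial cells backed this order on the male slide, at 12.8 CPM (transcripts of a gene scaled to a common total over all genes) in the Control section against 1103 and 848 in the PITX1+ sections, and in the wounds, at 59.2 in the Control wound against 650 and 323. On the female slide it did not, at 56.9 and 53.5 CPM in the sections labelled Control against 39.1 and 73.8 in those labelled PITX1+. For females the PITX1+ label therefore rests on the position of the section and on the match of cell numbers, and Pitx1 does not back it. Cells of the female sections labelled PITX1+ were denser, at 5891 and 6361 per mm² against 2882 and 2194, and Krt16 in their T marker cells was higher, at 4922 and 13397 CPM against 306 and 411. Krt16 is also among the genes compared between these labels below, so it is no separate check of them. Sections are taken as separate mice, which the labels do not state, so p-values measure the spread between sections.

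T cells of mouse skin are known as resident populations with different places. Dendritic epidermal T cells, which carry a gamma delta receptor, sit between keratinocytes, where they can release growth factors and Xcl1, a chemokine for cross-presenting dendritic cells. Regulatory T cells, which need the transcription factor Foxp3 and carry the co-stimulatory receptor Icos, lie mainly in the dermis around hair follicles and gather in wounds. Il7r, the receptor chain for interleukin 7, and Cxcr6, the receptor for Cxcl16, mark many tissue-resident lymphocytes, and Nkg7 belongs to the granules of cytotoxic cells. In oral mucosa T cells are likewise found within and under the epithelium.

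The name T cell was checked against 6 lymphocyte genes that the rule did not use, namely Il7r, the interleukin 18 receptor Il18r1, Cxcr6, the receptor Gpr171, the surface glycoprotein Cd52 and Foxp3. On the male skin slide 68.6% of 102 T marker cells held at least 1 transcript of these genes, against 5.11% of the cells with no marker transcript. In the wounds it was 77.3% of 317 cells against 20.8%. On the female slide the share was 36.6% of 835 against 13.3%, and on the buccal slide 47.3% of 112 against 3.80%. Rora, which is in the list of 7 lymphocyte identity genes used below, was left out of this check. It averaged 2498 CPM in T marker cells and 2544 in other cells of Control skin, and 2800 and 1673 in PITX1+ skin. In buccal sections with at least 20 T marker cells it averaged 4791 and 3920 CPM. Just inside the threshold, 560, 37, 70 and 144 cells of the female, male, buccal and wound slides held exactly 2 marker transcripts, and just outside it 3444, 110, 346 and 469 cells held 1 lone Cd3g. The label was thus well backed in male skin and wounds and less so on the other slides.

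The weaker slides differed in where the doubt lay. On the buccal slide, 53 of the 112 cells had been taken on Cd3g alone, and 22.6% of those held a lymphocyte gene, close to the 19.7% of 346 cells that had 1 lone Cd3g and were not taken. Those 53 cells held a median of 806 transcripts, against a median of 41 to 124 for other cells of the buccal sections. Of the 31 buccal cells with 3 or more marker transcripts of at least 2 kinds, 90.3% held a lymphocyte gene. On the female slide the share hardly moved with the evidence, from 34.5% for Cd3g alone to 38.8% for 3 or more transcripts of 2 kinds. There, Cd3g was also found in 2.41% of muscle cells (median 30 transcripts per cell) and 2.43% of fibroblasts (median 38), which should lack it, against 0.0199% and 0.132% on the male slide (medians 79 and 40), and 835 T marker cells of the female slide had a median of 52 transcripts. The whole rule took 0.241% of the fibroblasts and 0.136% of the muscle cells on the female slide, against 0.517% of all its cells, and 0.0102% and 0% on the male slide, against 0.129%. The main comparisons were therefore repeated with 3 or more marker transcripts.

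**Figure D1:**
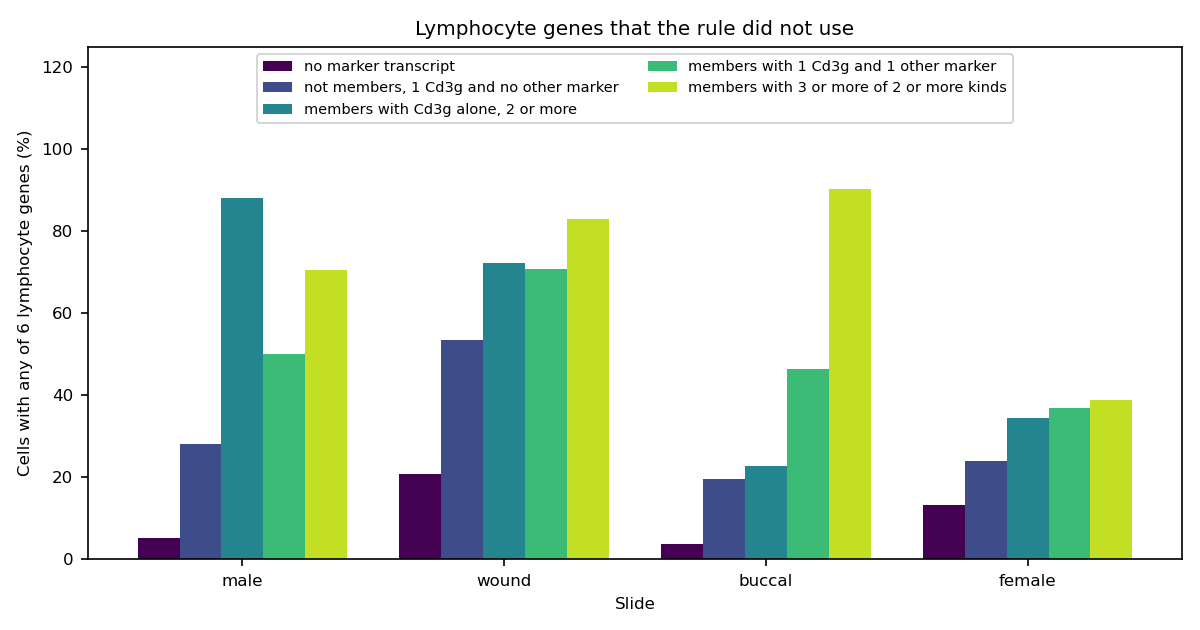
Share of cells (%, y axis) with at least 1 transcript of Il7r, Il18r1, Cxcr6, Gpr171, Cd52 or Foxp3 on each slide (x axis), for cells with no marker transcript, for cells with 1 lone Cd3g that were not taken, and for T marker cells (members) by the markers that chose them. On the buccal slide the share rises from 22.6% for Cd3g alone to 90.3% for 3 or more marker transcripts of 2 kinds, while on the female slide it lies between 34.5% and 38.8%.

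Among all panel genes, Cd3g stood furthest above its level in other cells on every slide. Most of the next ranks went to other genes of the rule, which are high because they chose the cells. In the wounds the leading genes outside the rule were Cxcr6 at 41.6-fold, Foxp3 at 36.1-fold and Il7r at 11.8-fold the CPM of other cells. On the male slide they were Cxcr6 at 132-fold, Foxp3 at 53.7-fold and Gpr171 at 50.2-fold. On the female slide Foxp3 led the genes outside the rule at 5.75-fold and Gpr171 followed at 3.82-fold. There Clca3a2 at 2.83-fold came before Il7r at 2.79-fold, and the epidermal keratin Krt77 at 2.76-fold before Cxcr6 at 2.73-fold. On the buccal slide Cxcr6 at 25.1-fold and Il7r at 10.2-fold came before keratinocyte genes such as Hrnr at 4.55-fold and Krt78 at 3.79-fold. Keratinocyte transcripts made up a large part of the content of these outlines, at 33.2% to 35.8% of the transcripts in Control skin, 18.5% to 41.6% in PITX1+ skin, 32.7% to 49.1% in buccal sections and 11.4% to 22.1% in wounds. Fibroblast genes made up at most 7.94%, in Control 2, and 5.00% in the Control wound, and vascular genes at most 1.08%, in PITX1+ 3. The 8 macrophage genes (C1qa, which the rule barred, among them) gave at most 0.861% of the transcripts in any section, B and plasma cell genes at most 0.523%, and mast cell genes at most 0.196%. Neutrophil genes reached 2.29% in 1 PITX1+ wound. Doublets had not been removed from the deposited cells, and an outline can take up transcripts of its neighbours.

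T marker cells made up less than 1% of the cells in every section. In female Control skin they numbered 159 and 83, or 0.917% and 0.705% of cells, and in male Control skin 5, or 0.0394%. In PITX1+ skin they numbered 313 and 280 in females, or 0.547% and 0.372%, and 20 and 77 in males, or 0.0523% and 0.275%. The 4 female sections were all above the 3 male sections, but not with 3 or more marker transcripts, where Control skin came to 0.306%, 0.331% and 0.0394% and PITX1+ skin to 0.152%, 0.128%, 0.0261% and 0.179%. Sections labelled PITX1+ had a mean share of 0.312% ± 0.206 (SD, n = 4) and Control skin 0.554% ± 0.458 (SD, n = 3), and this difference of -0.242 percentage points did not pass a two-sided exact permutation test over sections (p = 0.4, smallest possible 0.0571). This test, like those of density, Foxp3 share and cycling share between PITX1+ and Control below, disregarded slide, so its spread includes that between slides. Within slides, the share was lower in both PITX1+ sections than in both Control sections for females and higher in both for males, by -0.352 and 0.124 percentage points.

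The share also follows how many other cells a section holds, so the number per mm² of tissue was taken as well. Control skin held 26.4, 15.5 and 0.930 T marker cells per mm², and PITX1+ skin 32.2, 23.7, 2.66 and 11.0. These ranges overlapped almost fully. Cells of all kinds were denser in the PITX1+ sections, at 3994 to 6361 per mm² against 2194 to 2882. The density of T marker cells differed by 3.10 per mm² (17.4 ± 13.1 against 14.3 ± 12.8, SD, n = 4 and 3; two-sided exact permutation test, p = 0.8), and the sign of the difference turned without Control 3 (-3.57) or without PITX1+ 1 (-1.84). Within slides the mean density was higher in PITX1+ sections on both, by 6.99 per mm² for females, where the sections overlapped, and by 5.89 for males, where both exceeded the Control section. With 3 or more marker transcripts, the female sections came to 8.81 and 7.27 per mm² in Control and 8.96 and 8.11 in PITX1+ skin, a narrow range beside the male values of 0.930, 1.33 and 7.13. Fewer T cells and less RNA per T cell cannot be told apart in such counts.

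Buccal sections held 27, 20, 0, 19, 5, 10 and 31 T marker cells, or 13.9, 7.86, 0, 8.61, 4.06, 9.64 and 9.89 per mm². The section with none held 2449 cells, which allows a share of up to 0.122% by a limit of 3 counts (upper end of the exact 95% binomial interval 0.151%), and only 8 of those cells were epithelial. The buccal share averaged 0.154% ± 0.0917 (SD, n = 7), a difference of -0.400 percentage points from Control skin (exact permutation test, p = 0.117, smallest possible 0.0167), and the buccal density 7.71 ± 4.48 per mm², a difference of -6.57 from Control skin (exact permutation test, p = 0.3). All 7 buccal sections lay below both female Control sections, and all but the section with none lay above the male Control section. When each cell was thinned to 20 transcripts, because buccal T marker cells held more transcripts than others, the difference in share was -0.228 percentage points and passed the exact permutation test (p = 0.0167, the smallest it can give), but then at most 2 T marker cells were left in any buccal section.

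The wounds held 50 T marker cells in the Control wound, 0.274% of cells (exact 95% binomial interval 0.203 to 0.361), and 108 and 159 in the PITX1+ wounds, 0.283% (0.232 to 0.341) and 0.237% (0.202 to 0.277). The intervals, which cover counting error only, overlapped. Per mm² the wounds held 12.2, 17.9 and 21.2 T marker cells, all above the 3 sections of unwounded male skin, which were on another slide. With 1 Control wound there is no test between conditions.

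**Figure D2:**
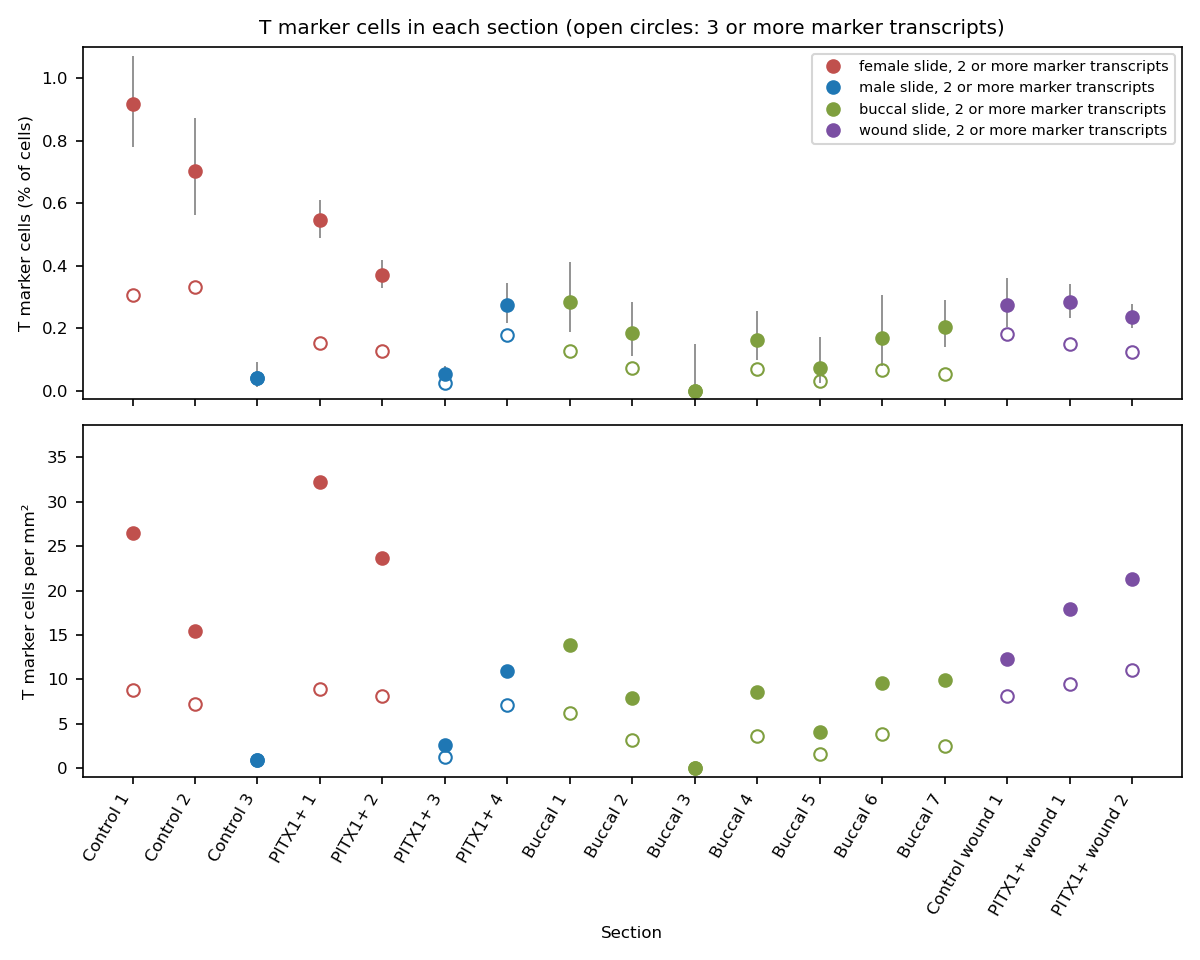
T marker cells in the 17 sections (x axis) as a share of cells (%, upper panel, bars are exact 95% binomial intervals that cover counting error only) and per mm² (lower panel), coloured by slide, with open circles for cells with 3 or more marker transcripts. Female skin lies above male skin, from 0.372% to 0.917% against 0.0394% to 0.275%, but among the open circles male PITX1+ 4 (0.179%) lies above both female PITX1+ sections (0.152% and 0.128%).

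T marker cells lay mostly in the epithelium of unwounded skin, where macrophages seldom lay. A cell was counted as lying in the epithelium when at least 5 of its 10 nearest neighbours were epithelial cells, and position had no part in the rule. Barring C1qa and Cd207 did bear on position, as 31.2% of the 234 cells left out on the female slide lay in the epithelium. In the wounds it was 12.1% of 140, against 60.4% and 31.5% of the T marker cells of these slides. The male and buccal slides lost 5 and 7 cells. Of the wound cells left out, 94.3% held a lymphocyte gene, against 77.3% of T marker cells. In Control skin 70.4%, 81.9% and 100% of T marker cells lay in the epithelium, and in PITX1+ skin 55.3%, 53.9%, 55% and 92.2%. Macrophages of the same sections were there in 3.35% to 14.96%, and Langerhans cells, the dendritic cells of the epidermis, in 63.9% to 100%. Over 7 of 7 unwounded skin sections T marker cells exceeded macrophages, on average 72.7% ± 19.1 against 7.25% ± 4.10 (SD, n = 7), a difference of 65.4 percentage points (p = 0.0156 in a two-sided exact permutation of signs, with no smaller p possible for 7 sections). All cells other than T marker cells also exceeded macrophages in each of these sections, at 43.4% to 62.3%. The test against macrophages therefore does not set T marker cells apart from other cells, and Cd3g and C1qa split the compared classes by definition. The median distance from a T marker cell to the nearest epithelial cell was 4.94 to 12.4 µm, against 40.8 to 160 µm for a macrophage.

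The position was also set against that of all other cells and of cells with fewer marker transcripts. Of all cells other than T marker cells, 43.4% to 62.3% lay in the skin epithelium, below the T marker cells in every unwounded skin section except PITX1+ 3 (55% of 20 cells against 62.3%). Cells with 1 lone Cd3g lay in the epithelium in 80.9% on the male slide, 89.6% on the buccal slide and 31.1% in the wounds. T marker cells stood little above them, at 85.3%, 91.1% and 31.5%. On the female slide, 49.1% of the cells with 1 lone Cd3g lay in the epithelium, 60.4% of T marker cells and 75.5% of those with 3 or more marker transcripts of 2 kinds. Of the added markers of the last group, Cd7, Nkg7 and Xcl1 were themselves found more often in the epithelium and Icos more often outside it. The independent lymphocyte genes hardly rose with the number of markers on the female slide, so these shares are a description.

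The epithelial share of T marker cells was tested between conditions without regard to slide, on too few sections to pass. It averaged 64.1% ± 18.7 (SD, n = 4) in sections labelled PITX1+ and 76.2% ± 8.12 (SD, n = 2) in the Control sections with at least 20 T marker cells (difference -12.1, exact permutation test, p = 0.4, smallest possible 0.133). Within females both PITX1+ sections, at 55.3% and 53.9%, were below both Control sections, at 70.4% and 81.9%. Within males, PITX1+ 3 stood at 55% and PITX1+ 4 at 92.2%, against 5 of 5 cells in Control 3. The mean was thus lower in PITX1+ sections on both slides, by -21.6 percentage points for females and -26.4 for males.

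In buccal mucosa T marker cells were nearly all in the epithelium, with 92.6%, 100%, 100%, 80%, 70% and 87.1% in the 6 sections that held any. The 3 buccal sections with at least 20 such cells averaged 93.2% ± 6.48 (SD, n = 3), against 5.69% ± 3.75 for macrophages (difference 87.5, exact permutation of signs, p = 0.25, with no smaller p possible) and against 76.2% in Control skin (difference 17.05, exact permutation test, p = 0.2, also the smallest). This last difference turned to -20.9 when the epithelium was defined by an epithelial cell centre within 15 µm. Of the T marker cells, 100 of 112 on the buccal slide, 454 of 835 on the female slide, 82 of 102 on the male slide and 85 of 317 in the wounds also met the definition of an epithelial cell. How many of them, in skin or cheek, are keratinocytes with Cd3g transcripts was not tested.

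In the PITX1+ wounds the picture differed, while the Control wound lay within the range of unwounded skin (53.9% to 100%). The Control wound had 56% of its T marker cells in the epithelium (exact 95% binomial interval 41.3 to 70.0), and the PITX1+ wounds 24.1% (16.4 to 33.3) and 28.9% (22.0 to 36.6). Most T marker cells of the PITX1+ wounds therefore lay outside the epithelium, at a median of 25.7 and 29.9 µm from the nearest epithelial cell against 12.4 µm in the Control wound. Of other cells in the same wounds, 24.8% were in the epithelium in the Control wound and 32.7% and 18.7% in the PITX1+ wounds. With a single Control wound this difference has no replicate check.

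**Figure D3:**
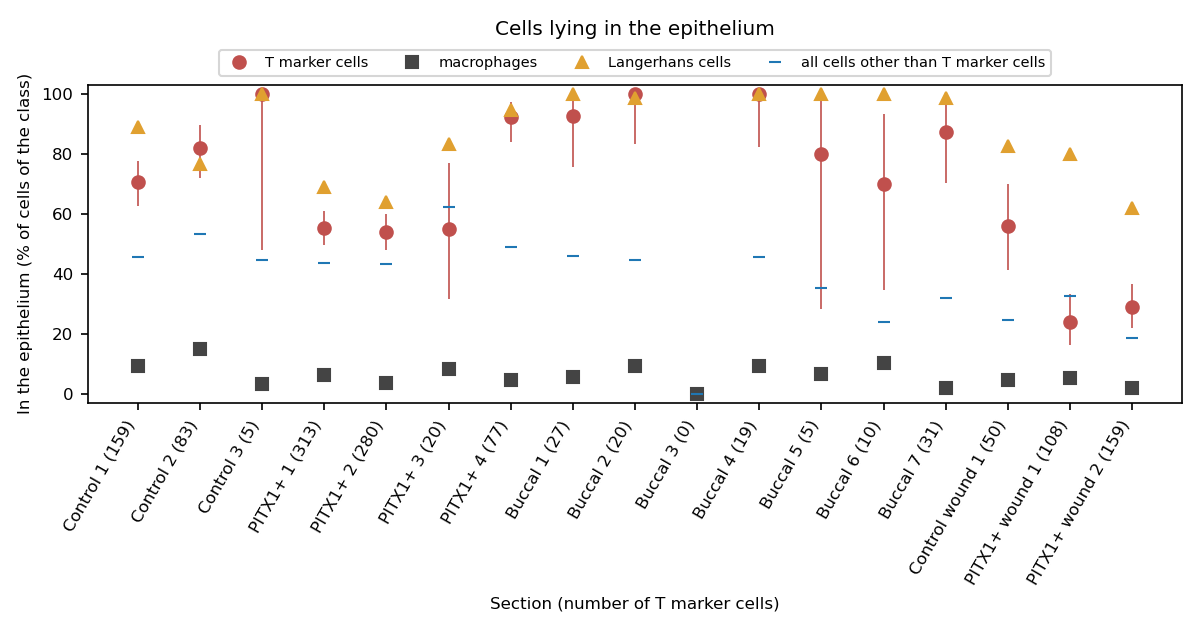
Share of T marker cells (with exact 95% binomial intervals), macrophages, Langerhans cells and all cells other than T marker cells that lay in the epithelium (%, y axis) in each section (x axis, with the number of T marker cells). T marker cells lie at 53.9% to 100% in unwounded skin, where macrophages lie at 3.35% to 14.96%, and at 24.1% and 28.9% in the PITX1+ wounds.

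T marker cells in and out of the epithelium carried different genes. Inside it, Cd7, Nkg7 and Xcl1 were found more often, and outside it Icos, Foxp3, Il7r and Cxcr6. On the female slide Cd7 was found in 48.4% of the cells inside and 22.4% of the 331 outside, and Icos in 6.75% and 23.6%. On the male slide (87 and 15 cells) Cd7 was found in 63.2% and 0%, Xcl1 in 36.8% and 0%, and Icos in 5.75% and 53.3%. In the wounds (100 and 217 cells) Cd7 was found in 43% and 14.7%, Xcl1 in 21% and 3.69%, and Icos in 27% and 65.4%. For these rule genes a low share of one favours a high share of another, because a cell with exactly 2 marker transcripts can hold only 1 of them beside Cd3g.

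Among genes that the rule did not use, Foxp3 and Il7r were also found more often outside, with cells pooled over sections. Foxp3 was found in 4.17% of cells inside and 14.5% outside on the female slide, in 2.30% and 40% on the male slide, and in 13% and 37.3% in the wounds. Il7r was found in 2.58% and 13.3%, in 4.60% and 40%, and in 18% and 52.1%, in the same order. Outside the epithelium of the wounds, Ccr2, a receptor for inflammatory chemokines, was also more frequent, at 28.6% against 16%. Gpr171 went the other way on the male slide, with 31.0% inside and 6.67% outside, and differed little in the wounds, with 21% and 18.0%.

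**Figure D4:**
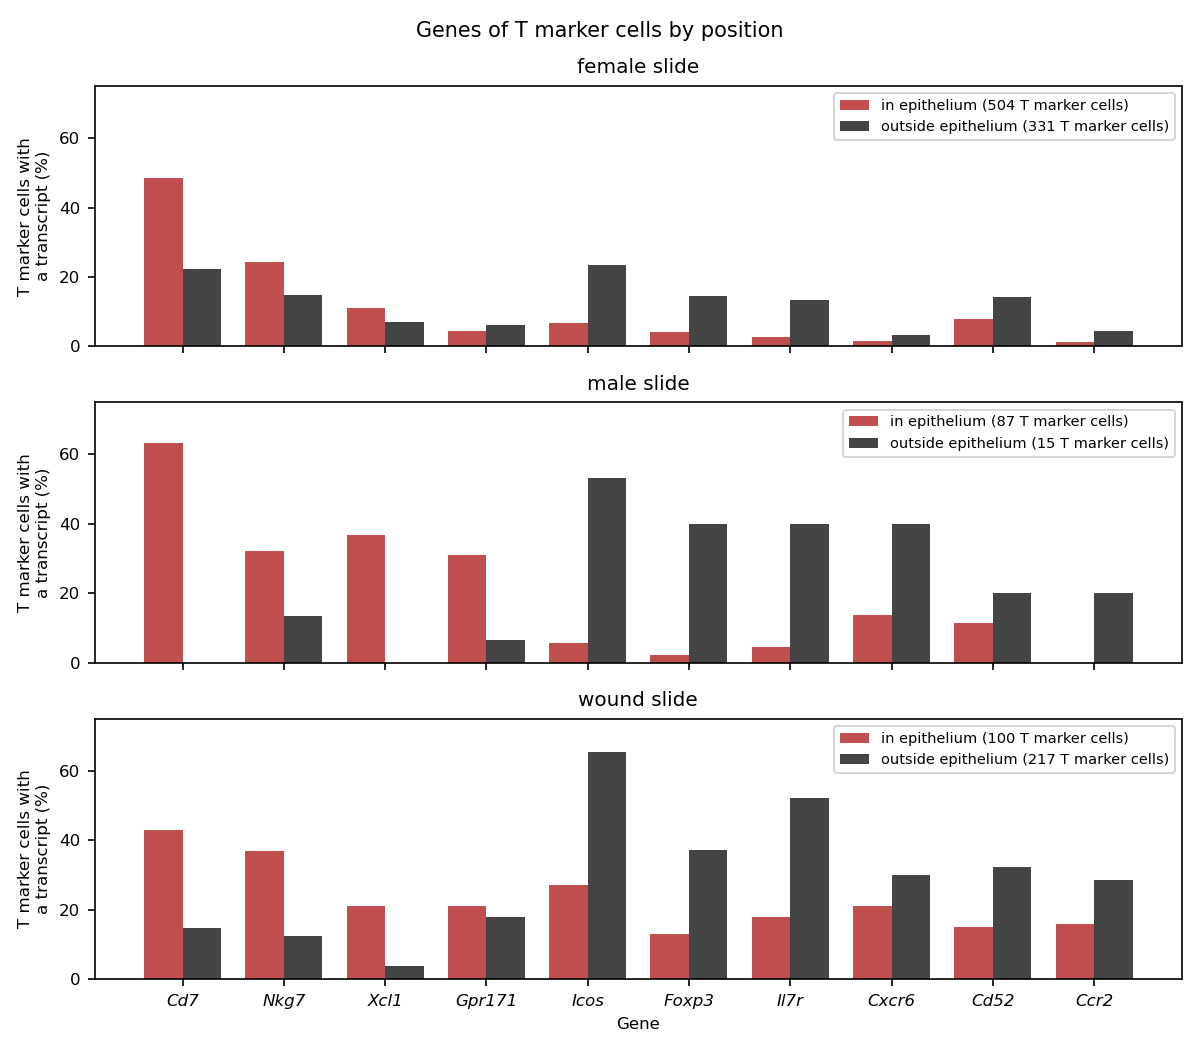
Share of T marker cells with at least 1 transcript of each gene (%, y axis) in the epithelium and outside it, for the female skin, male skin and wound slides, with the number of cells in each legend. Cd7 and Xcl1 are more frequent inside on every slide and Icos, Foxp3 and Il7r outside, as for Il7r in the wounds, with 18% and 52.1%.

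A test of this split was made in unwounded skin on transcripts summed per section and place, with edgeR's quasi-likelihood test blocked by section and adjusted over all genes (8 sums of at least 20 cells from 5 sections). Only Control 1, PITX1+ 1 and PITX1+ 2, all on the female slide, had sums for both places, so the contrast rests on them. Male skin had no sum outside the epithelium and added nothing to the contrast. Of 234 genes, 113 (48.3%) passed, 58 (24.8%) higher inside and 55 (23.5%) lower. The female slide alone also gave 113, of 220 tested. Library size in place of TMM scaling moved this split to 42 and 80, since it moved the median of all genes from -0.09 to -0.66. Genes of cornifying keratinocytes led the rise, with Lor (loricrin) at a log2 fold change of 8.46 ± 1.03 (SE), then Krt1, Krt77, Cstdc5 and Dsc1 at 7.53 to 5.82. The strongest falls were in Saa3, an acute phase protein, at -5.26, Gpx3 at -4.65, the macrophage receptor Mrc1 at -4.07, the muscle gene Des at -3.96 and Lyz2 at -3.79. All 113 of the genes that passed had the same sign when other cells of the same places were compared, and 108 of the 113 differed from them by less than 2 SE, so most of these genes differed between the places alike in T marker cells and in other cells.

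Of the 7 lymphocyte identity genes, 6 could be tested and 3 passed, all lower inside, a share close to the 48.3% that passed over all genes. The list median was -1.14, against -0.09 over all genes and -0.88 for the same genes in other cells. Il7r came to 251, 0, 169, 683 and 890 CPM in the 5 sums inside and to 1622, 2169 and 6312 CPM in the 3 sums outside, with no overlap. Foxp3 came to 1131, 242, 619, 342 and 890 CPM inside and 4865, 2836 and 6154 outside, also without overlap. Their log2 fold changes were -2.68 ± 0.56 and -2.22 ± 0.51 (SE, edgeR adjusted p = 1.18e-05 and 6.57e-05), against -1.65 and -0.996 for the same genes in other cells. Il18r1 (-0.67), Gpr171 (-0.92) and Rora (0.53) did not pass (edgeR adjusted p = 0.262, 0.172 and 0.442). Cd52 fell by 1.36 ± 0.53 on the log2 scale (edgeR adjusted p = 0.0235), a call that was lost under 11 of the alternatives, DESeq2 among them (adjusted p = 0.192). Without PITX1+ 2, 1 of the 3 sections with a sum outside, edgeR called no gene (79 at an unadjusted p under 0.05), and Il7r stood at -2.34 and Foxp3 at -1.25 (edgeR adjusted p = 0.0889 and 0.132).

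The other lists were counted in the same way. The only testable chemokine receptor, Ccr1, was lower inside (-1.64 ± 0.53, SE, edgeR adjusted p = 0.00595), as were 2 of 5 adhesion genes, the integrins Itgb1 (-1.25) and Itgam (-1.51), and 1 of 3 growth factor genes, Igf1 (-2.51). With so few genes a list these counts are not set apart from the 48.3% that passed, 23.5% lower, over all genes. For Ccr1, Itgam and Igf1 the log2 fold changes in other cells were as low or lower, at -1.66, -2.26 and -2.56. By DESeq2 the calls of Ccr1, Itgb1 and Itgam were lost (adjusted p = 0.125, 0.0827 and 0.270). None of the 4 immediate early genes and none of the 7 cell cycle genes passed edgeR or DESeq2, with 1 (Atf3) and 0 at an unadjusted p under 0.05. Of 26 keratinocyte genes, 23 were higher inside.

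T marker cells with Foxp3, the candidates for regulatory T cells, were few in unwounded tissue. In Control skin 7.55%, 4.82% and 0% of T marker cells held a Foxp3 transcript (12, 4 and 0 cells), and in PITX1+ skin 6.71%, 11.4%, 10% and 7.79% (21, 32, 2 and 6 cells). The 5 cells of male Control skin allow a share of up to 52.2% by the exact 95% binomial interval. Other cells held Foxp3 in 0.188% to 1.94% of cases, so the shares stood above this level wherever the gene was found. Sections labelled PITX1+ averaged 8.98% ± 2.13 (SD, n = 4) and Control 4.12% ± 3.82 (SD, n = 3), a difference of 4.86 percentage points that did not pass the exact permutation test (p = 0.114, smallest possible 0.0571). In the buccal sections only 3 T marker cells held Foxp3, 1 each in 3 sections. The buccal sections with at least 20 T marker cells averaged 1.08% ± 1.86 (SD, n = 3), a difference of -3.05 percentage points from Control skin (exact permutation test, p = 0.4).

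The position of Foxp3 T marker cells was compared with that of the other T marker cells of their section. In the 3 sections with at least 10 of them, Control 1, PITX1+ 1 and PITX1+ 2, 50%, 47.6% and 12.5% were in the epithelium, against 72.1%, 55.8% and 59.3% of the others. The difference averaged -25.7 percentage points and was negative in 3 of 3 (exact permutation of signs, p = 0.25, with no smaller p possible).

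In the wounds Foxp3 was more frequent than in any unwounded section. It was held by 10 of 50 T marker cells of the Control wound, or 20% (exact 95% binomial interval 10.0 to 33.7), and by 28 of 108 and 56 of 159 in the PITX1+ wounds, or 25.9% (18.0 to 35.2) and 35.2% (27.8 to 43.2). Other cells of these wounds held it in 0.604%, 1.10% and 1.39%, with medians of 58, 61 and 57.5 transcripts per cell against 90, 76 and 73 in T marker cells. When cells were thinned to 20 transcripts the shares were 20%, 24% and 11.8%, so their order did not hold, on 15, 25 and 34 T marker cells. In the epithelium lay 50%, 0% and 14.3% of the Foxp3 cells and 57.5%, 32.5% and 36.9% of the others.

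The genes found beside Foxp3 are given as a description. Of the genes that the rule did not use, Il7r was in 61.7% of the 94 Foxp3 cells of the wounds against 32.7% of the 223 other T marker cells, Cd44, the hyaluronan receptor of activated cells, in 61.7% against 43.9% and Ccr2 in 38.3% against 18.8%. In the Control wound Cd44 went the other way, in 4 of 10 Foxp3 cells (40%) against 25 of 40 others (62.5%). Areg, the growth factor amphiregulin, was in 10.6% against 5.83%. Of the rule's genes, Icos was in 83.0% against 40.8%, in each wound 70%, 85.7% and 83.9% against 20%, 51.2% and 40.8%. None of the 94 held Xcl1, which allows a share of up to 3.19%, against 29 of 223, and Nkg7 was in 4.26% against 26.9% and Cd7 in 9.57% against 29.6%. These 4 genes chose the cells, and one of them being frequent makes the others less so where only 2 marker transcripts were found. In unwounded skin Il7r was in 19.5% of 77 Foxp3 cells against 6.05% of 860 others and Ccr2 in 5.19% against 2.44%, while Cd44 was in 19.5% against 18.7%. There Icos was in 45.5% against 10.5%, Cd7 in 15.6% against 42.0% and Xcl1 in 5.19% against 12.3%. Of these unwounded cells, 69 of the 77 and 766 of the 860 came from the female slide, where the label was less well backed. Cd44 was in 13.0% against 14.6% on the female slide, and in 6 of 8 Foxp3 cells against 52.1% of 94 others on the male slide. The Ccr2 share rests on 4 Foxp3 cells. Cells were pooled over sections for these shares, and no difference was tested.

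Several genes were found at other rates in T marker cells of the wounds than of unwounded skin, given here with no test. Icos was found in 30%, 60.2% and 56.0% of them in the Control wound and the PITX1+ wounds, against 0% to 35% in unwounded skin, a range that holds the Control wound. Il7r was found in 26%, 45.4% and 43.4%, against 0% to 25%, and Ccr2 in 32%, 30.6% and 18.2%, against 0% to 10%. Cxcr6 stood at 20%, 27.8% and 28.9%, within the 1.2% to 40% of unwounded sections. Cd7 was found in 38%, 15.7% and 24.5%, against 25% to 80% in skin, and Xcl1 in 22%, 9.26% and 5.03%, against 6.79% to 40%, so that for Cd7 and Xcl1 only PITX1+ wounds fell outside the skin ranges. Among the unwounded sections, Control 3 held 5 T marker cells and PITX1+ 3 held 20, so few cells can set the ends of the skin ranges. T marker cells held medians of 25 to 95 transcripts in unwounded skin sections and 73 to 90 in wounds. Wounded and unwounded skin lay on different slides, so wound and slide cannot be told apart.

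Genes in T marker cells of PITX1+ and Control skin were compared on transcripts summed per section, with slide as a covariate. Keratinocyte transcripts made up 33.2% to 35.8% of these sums in Control skin and 18.5% to 41.6% in PITX1+ skin. The sums therefore cannot single out genes of the T cells themselves. Of 189 genes, 11 (5.82%) passed edgeR's quasi-likelihood test after adjustment, all higher in the sections labelled PITX1+. Lower calls came to 0 by edgeR, 4 at an unadjusted p under 0.05 and 2 by DESeq2. The largest rise was in Stfa3, a stefin protease inhibitor, at 204, 0 and 0 CPM in Control and 5721, 7390, 0 and 1324 CPM in PITX1+ sections, with a log2 fold change of 5.53 ± 0.96 (SE, edgeR adjusted p = 0.00451). Cstdc5, of the same inhibitor family, followed at 5.17, the hyperproliferation keratin Krt16 at 4.70, Saa3 at 4.62 and the fatty acid binding protein Fabp5 at 3.91.

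For each of the 11 genes the highest level was in a female PITX1+ section. Krt16 was at 306, 411 and 0 CPM in Control and 4922, 13397, 2882 and 0 CPM in PITX1+ sections, so it was not found in the male PITX1+ 4 section, and its call was lost by DESeq2 (adjusted p = 0.184). Gsdmc, Slpi, Sprr2d, Sprr2a3 and Flg also passed. All 11 had the same sign in the other cells of the same sections, and 8 of the 11 differed from them by less than 2 SE. Without Control 1, or without the slide covariate, no gene passed (13 and 16 at an unadjusted p under 0.05), while without PITX1+ 4 there were 33.

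No gene of the 6 T cell lists passed by edgeR or DESeq2, beside the 5.82% over all genes. In the lymphocyte identity list all 7 were tested, 2 of them at an unadjusted p under 0.05, and their median log2 fold change was 0.29 against 0.19 over all genes. Cd52 was at 612, 411 and 0 CPM in Control and 1557, 3242, 5043 and 1083 CPM in PITX1+ sections, with no overlap (log2 fold change 2.23 ± 0.76, SE, edgeR adjusted p = 0.114), and 0.56 in other cells. Il7r was at 510, 411 and 0 CPM and at 673, 2384, 5764 and 1444 CPM, also with no overlap (1.80 ± 0.83, SE, edgeR adjusted p = 0.333), and -0.13 in other cells. For both genes, 411 CPM in Control 2 was 2 transcripts. In Control 3, with 5 T marker cells, 2 transcripts would already make 10695 CPM, so its 0 and the lack of overlap say little. Foxp3 came to 0.29 ± 0.64 and Rora, a nuclear receptor of innate-like lymphocytes, to 0.61 ± 0.61. The medians were 0.29 for 2 chemokine receptors, 0.21 for 3 adhesion genes, 0.38 for 2 growth factor genes, 0.34 for 4 immediate early genes and -0.23 for 7 cell cycle genes.

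T marker cells of buccal mucosa and Control skin differed in most of the genes left by the filter on low counts. Of 107 such genes, 76 (71%) passed edgeR's quasi-likelihood test, 41 (38.3%) higher and 35 (32.7%) lower in buccal sections, while 120 of 319 passed with no filter, and library size in place of TMM scaling gave 33 and 46, as it moved the median of all genes from -0.30 to -0.95. Krt4, a keratin of oral epithelium, stood at 118591, 131487 and 136018 CPM in the 3 buccal sums and 0, 411 and 0 CPM in Control skin (log2 fold change 10.25 ± 0.75, SE, edgeR adjusted p = 1.1e-09). Slpi, Sprr3, Sprr1b and Tgm3 followed at 8.58, 7.61, 6.73 and 6.44. Krt77, a keratin of the epidermis, was at 0 in all 3 buccal sums and 66170, 48450 and 58824 CPM in Control skin. Clca3a2, Krt1, Fcgbp and Col1a1 were lower by -9.47, -7.67, -7.10 and -6.54. Among the 76 genes, 63 had the same sign in other cells, and 41 of the 76 differed from them by less than 2 SE.

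**Figure D5:**
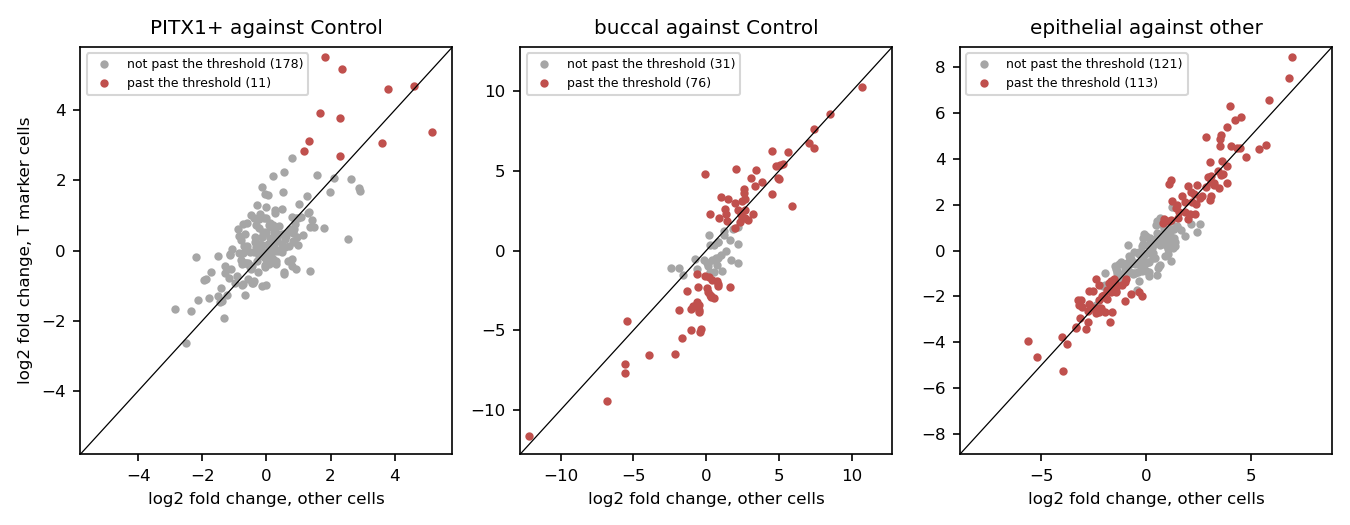
Log2 fold change of each gene in T marker cells (y axis) against that in the other cells of the same sections or places (x axis) for PITX1+ against Control skin, buccal mucosa against Control skin and T marker cells in the epithelium against the rest in skin, with the line of equality. Of the genes past the threshold, 8 of 11, 41 of 76 and 108 of 113 lie within 2 SE of it, in this order.

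Few T cell genes could be tested in buccal sections. Those that passed were 1 of 2 lymphocyte identity, 1 of 2 adhesion, 1 of 2 growth factor, 2 of 3 immediate early and 2 of 2 cell cycle genes. With so few genes a list these counts are not set apart from the 71% that passed over all genes. Rora passed among the 2 lymphocyte identity genes tested, at 6445, 2808 and 5120 CPM in buccal sums and 1325, 821 and 5348 CPM in Control skin (2.58 ± 0.72, SE, edgeR adjusted p = 0.00385, other cells 1.26), with an overlap from the 5 cells of Control 3. The growth factor Hbegf (2.99), the early response gene Jun (3.38) and the heat shock gene Dnajb1 (3.08) were higher, also in other cells (1.97, 0.99 and 2.46). The calls of Rora, Hbegf and Dnajb1 were lost without Control 2 (edgeR adjusted p = 0.0632, 0.0755 and 0.0656). A further 3 list genes fell, against the sign in other cells. The mitotic gene Prc1 was at 410, 97 and 284 CPM in buccal sums and 2651, 2874 and 10695 in Control skin (-2.79 ± 0.62, SE, edgeR adjusted p = 0.000597, other cells 0.24), the histone gene Hist1h1b fell by 1.64 and Itgb1 by 1.94 on the log2 scale (other cells 0.22 and 0.77). The 10695 CPM of Prc1 in Control 3 was 2 transcripts. The calls of Hist1h1b and Itgb1 were lost by DESeq2 (adjusted p = 0.151 and 0.109), and those of Prc1, Hist1h1b and Itgb1 with at least 2 Cd3g transcripts required (-0.33, -0.98 and -0.41) or without any 1 of the 3 buccal sections.

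Cycling T marker cells, with at least 2 transcripts of 10 cell cycle genes such as Top2a, were more frequent in every PITX1+ section than in Control skin of the same slide. They made up 16.98%, 15.7% and 20% in Control and 22.0%, 28.6%, 45% and 33.8% in PITX1+ sections, without overlap. The difference of 14.8 percentage points (32.3% ± 9.70 against 17.5% ± 2.22, SD, n = 4 and 3) came with p = 0.0571 in the exact permutation test, the smallest it can give. In the summed transcripts the 7 cell cycle genes tested did not rise as a list. Their median log2 fold change was -0.23, against 0.19 over all genes and 0.68 for the same genes in other cells. Of the 7, 0 passed edgeR (0 at an unadjusted p under 0.05 and 0 by DESeq2), which says little beside the 5.82% that passed over all genes. Epithelial cells of the same sections went from 14.8%, 9.64% and 6.76% in Control to 14.4%, 26.9%, 29.2% and 37.9%, and macrophages from 3.48%, 3.88% and 6.23% to 4.22%, 5.03%, 15.1% and 19.5%, and their part in the T marker cell value was not tested. With cells thinned to 20 transcripts, the difference for T marker cells was 7.32 points (exact permutation test, p = 0.4). In the wounds 30%, 37.96% and 27.7% were cycling.

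T marker cells were set against macrophages for their neighbours and nuclei. Among cells within 30 µm of a T marker cell, 0.880% were T marker cells on average, against 0.376% within 30 µm of a macrophage (higher in 4 of 7 sections, exact permutation of signs, p = 0.125), and at 60 µm the difference of 0.611 points passed (p = 0.0156 by the same exact test). With 3 or more marker transcripts the difference at 30 µm was 0.138 points (exact permutation p = 0.406). T marker cells lay mostly in the epithelium and macrophages seldom did, and the rule barred outlines with C1qa. How much of the difference in neighbours goes with position or with this bar was not tested. Near T marker cells the share was above that of the whole section in Control 1 (1.71% against 0.917%), Control 2 (0.733% against 0.705%), PITX1+ 1 (0.962% against 0.547%), PITX1+ 2 (0.914% against 0.372%) and PITX1+ 4 (1.84% against 0.275%), and it was 0 in Control 3 and PITX1+ 3. Nuclei of T marker cells were larger than those of macrophages in 7 of 7 skin sections, with a median area of 25.7 ± 2.99 against 21.4 ± 2.32 µm² (SD, n = 7, difference 4.28, p = 0.0156 in the same exact permutation of signs, again the lowest possible). Of these cells, 454 of 835 on the female slide and 82 of 102 on the male slide also met the definition of an epithelial cell. Nuclei of epithelial cells were not compared, so whether the larger area belongs to T cells was not tested.

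Chemokine genes were compared between other cells within 30 µm of a T marker cell and those farther away. None of 10 genes passed an exact permutation of signs after adjustment over the 10, and 5 did at an unadjusted p under 0.05. Cxcl16, the ligand of Cxcr6, was higher near T marker cells in 6 of 7 sections, at 3154 against 2400 CPM (1.31-fold, adjusted exact p = 0.0781). The stromal chemokine Cxcl12 was lower near them in 7 of 7 sections, at 2179 against 4361 CPM, and Cxcl13 in 7 of 7, at 105 against 258 CPM (both adjusted exact p = 0.0781). Of the cells near a T marker cell, 48.5% to 96.6% were epithelial, against 32.5% to 50.2% farther away, and among epithelial cells alone Cxcl16 stood at 1.07-fold (higher near in 4 of 7 sections) and Cxcl12 at 0.728-fold. In that comparison 1 gene, Cxcl13, had an unadjusted exact p under 0.05.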

How the data were processed

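Xenium output of 4 slides was analysed. Per the labels and file headers the authors deposited, for each slide, a table of decoded transcripts with a quality score, a position and other fields such as the mark for lying over the nucleus, a table of cells with counts of transcripts per cell, not normalized, and the outline points of cells and nuclei, of which only the areas given in the cell table were taken. Segmentation settings are not given in the sources used here. For the 328 panel genes, transcripts scoring 20 or more were summed in each cell, and the counts equalled the deposited counts in 100% of cells. Depth was 6288712 to 10483436 panel transcripts per slide, with medians of 26 to 125 per cell by section, which limits the detection of single genes. Cells within 100 µm (200 µm on the wound slide) were joined into 17 sections of at least 2000 cells. Of 515791 cells, 25 had an ID found on more than 1 slide, none of them a T marker cell.

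An epithelial cell had 3 or more transcripts of 27 keratinocyte genes making up at least 20% of its transcripts, a macrophage had C1qa and 3 or more transcripts of 8 genes, and a Langerhans cell 2 or more of Cd207. Sections were compared by exact two-sided permutation tests (scipy 1.17.1, Python 3.11.15), which disregarded slide when conditions were compared. Counts summed over T marker cells were tested with edgeR 4.0.16 (filterByExpr, TMM, quasi-likelihood, Benjamini-Hochberg adjustment, threshold 0.05, R 4.3.3), which was tested on simulated data, and DESeq2 1.42.0 was an alternative. The rule's genes stayed in the library sizes and were not tested. Sums by place, buccal sections in comparisons of genes, Foxp3 or position, and Control and PITX1+ sections in comparisons of position between groups needed at least 20 T marker cells, while Control 3, with 5, stayed in the other comparisons, the buccal genes among them. The rule for named genes took the genes of 6 T cell lists and the 5 largest changes in each direction per comparison, and list genes that are not named enter only the counts and medians of their list. Some items are not reported here. The members and lists were chosen with earlier results of these data known. Genes named for leading levels, Foxp3 partners or fewer calls were chosen after their values were seen. Intervals are exact binomial (Clopper-Pearson) at 95% and, like the upper limit of 3 counts for a share of 0, cover counting error only.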

Additional observations from a re-analysis of the deposited data

Results flagged for a closer look

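The share of T marker cells in the epithelium was 92.2% in PITX1+ 4, far from the 53.9% to 55.3% of the other sections labelled PITX1+. Its gap to the nearest of them was 0.965 of the range of the 4 sections. With 3 or more marker transcripts it stood less apart, at 90% against 74.7%, 58.3% and 50%. Chance sets about 1 in 20 such groups apart, and 14 groups were checked. PITX1+ 4 held 77 T marker cells, 0.275% of its cells.

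The share of T marker cells among all cells was lower in the PITX1+ sections than in the Control sections of the female slide, by -0.352 percentage points, and higher on the male slide, by 0.124. Every section of each slide followed its slide's direction, but with 3 or more marker transcripts PITX1+ 3, at 0.0261%, was below Control 3, at 0.0394%. The difference between the slides was not tested, the male slide had 1 Control section with 5 T marker cells, and Pitx1 did not separate the female sections.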

How the results depend on the processing

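Of 262 recomputed answers to the comparisons, 235 kept their direction and their side of the threshold, or stayed within 1.5 times a count. Another 16 lost the threshold or, for counts of genes called by edgeR, fell by more than 1.5 times. A further 6 newly passed it or, for such counts, rose by more than 1.5 times. In sign 3 turned, and 2 counts of chemokine genes moved. Of 579 values of single genes none turned and 99 lost the threshold. The cause of a change was not tested.

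Without each section in turn, the T marker cell share differed by -0.499 to -0.0605 points (PITX1+ minus Control) and -0.657 to -0.218 (buccal minus Control), the density by -3.57 to 9.18 and -13.2 to -0.490 per mm², the epithelial share by -21.5 to -6.34 and 11.3 to 22.8, the Foxp3 share by 2.80 to 6.57 and -5.11 to -1.33 and the cycling share by 10.6 to 18.2. T marker cells minus macrophages gave 60.2 to 68.6 points in skin and 86.0 to 88.7 in buccal mucosa for the epithelial share, 3.79 to 4.47 µm² for the nucleus and 0.300 to 0.608 points for the neighbours, and Foxp3 cells minus others -34.4 to -15.2. Genes past the threshold numbered 0 (without Control 1) to 33 (without PITX1+ 4) for PITX1+ skin, with 3 without PITX1+ 1 and 5 without PITX1+ 2, 50 (without Control 2) to 119 (without Control 3) for buccal mucosa and 0 (without PITX1+ 2) to 116 for the epithelium, with 73 without PITX1+ 1. Chemokine calls stayed at 0. Density turned to -3.57 without Control 3 and to -1.84 without PITX1+ 1.

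With at least 3 marker transcripts, the epithelial share gave 70.3 points for T marker cells minus macrophages and -10.5 for PITX1+ minus Control, the Foxp3 share 6.98, the cycling share 13.7, the nucleus 3.41 µm² and the neighbours 0.138 points (exact permutation p = 0.406).

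For PITX1+ skin 1 gene passed without a filter on low counts, 0 without the slide covariate, 3 with at least 2 Cd3g and 4 over the nucleus. Without a filter 120 of 319 passed for buccal mucosa. For the epithelium 54 passed with at least 3 marker transcripts, 67 over the nucleus and 55 with an epithelial cell within 15 µm, where the buccal epithelial share turned to -20.9. Thinning gave -0.228 for the buccal share and 60 µm gave 0.611 for the neighbours. Without the exclusion of C1qa and Cd207, 4 chemokine genes passed. Alternatives chosen after seeing the data gave 7 genes for PITX1+ skin and 4 chemokine genes with at least 3 markers of 2 kinds, and on the female slide alone 24 genes, a difference to macrophages of 56.8 points and a nucleus difference of 4.53 µm², where 4 sections cannot pass the threshold. Chemokines in epithelial cells alone gave 0 calls.

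With at least 3 marker transcripts, over the nucleus or with 2 kinds no buccal section kept 20 T marker cells, so those buccal gene comparisons were not run. No paired analysis was possible because the section numbers only name positions, as far as comparisons between conditions go.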
